A study of Mus musculus with 2 samples.

Results

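The LIM homeodomain genes Lhx6, Lhx8, Lhx1, Lhx2, Isl1 and Isl2, the cofactor genes Ldb1 and Ldb2, and the LIM-only genes Lmo4 and Lmo3 were examined for LHX6 binding in the embryonic upper jaw. An interval, a region of enriched fragment density listed by the authors, was joined to one of these 10 genes when its deposited gene list named the gene or when its summit, the position of highest density, lay within 100 kb of the gene's start in build mm9. By this rule 26 of 6566 LHX6 intervals were joined to 8 of the 10 genes, and Isl1 and Lmo3 had none. The members were not picked by a measured value, but they were chosen with earlier results of these data known. Joining by distance also reaches intervals that lie closer to other genes.

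The data were 1 chromatin immunoprecipitation sequencing (ChIP-seq) library made with a rabbit polyclonal antibody to LHX6 and 1 input library, both from wild-type CD-1 mice at E11.5. The maxillary arches of 47 embryos were pooled, and 20 µg of chromatin entered the immunoprecipitation. Neither group has a replicate, so no value carries a replicate error, no test between conditions was possible, and read totals are unknown here. The series title gives the purpose as finding a regulatory element that LHX proteins act on. Height below is the highest fragment density in an interval, as deposited by the authors, and shares of intervals carry exact Clopper-Pearson 95% intervals that cover counting error only.

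LIM homeodomain proteins carry a pair of LIM domains, which bind other proteins, and a homeodomain, which binds DNA. LDB1 and LDB2 bind LIM domains and also bind themselves, so that they can bridge LIM homeodomain proteins held at separate sites. LMO proteins consist of LIM domains without a homeodomain and compete for the LDB cofactors. LHX6 and LHX8 are close relatives made by neural crest cells of the upper and lower jaw, where the combined loss of both disturbs formation of the palate and teeth. Both also act in neurons of the ventral forebrain.

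Windows of 201 bases centred on 8 of the summits are shown because the hexamer counts below rest on them: those of the intronic intervals of Ldb2 hold TGATTG or TGATTA (and in 1 case TAATTA), and most near Lhx6 and Lhx8 lack them at the summit. These 3 hexamers, which have the form of homeodomain sites, were searched on both strands, and adjoining or overlapping copies were each counted, the palindromic TAATTA once. Below, hexamer stands for any of the 3, and at the summit means within 100 bp of it. The plus strand of NCBIM37 (mm9) is written 5′ to 3′, capitals mark a hexamer in either orientation (so CAATCA is TGATTG and TAATCA is TGATTA on the minus strand), and no window holds an annotated exon.
Ldb2, height 46, chr5:44929308-44929508: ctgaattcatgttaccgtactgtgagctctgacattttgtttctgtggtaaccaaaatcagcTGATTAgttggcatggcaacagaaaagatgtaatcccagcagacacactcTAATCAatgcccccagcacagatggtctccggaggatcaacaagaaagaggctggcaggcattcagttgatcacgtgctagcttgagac
Ldb2, height 18, chr5:44930284-44930484: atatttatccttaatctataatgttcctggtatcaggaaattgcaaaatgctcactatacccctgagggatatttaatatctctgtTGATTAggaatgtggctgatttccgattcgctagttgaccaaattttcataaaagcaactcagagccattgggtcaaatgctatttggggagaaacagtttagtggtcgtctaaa
Ldb2, height 25, chr5:45046364-45046564: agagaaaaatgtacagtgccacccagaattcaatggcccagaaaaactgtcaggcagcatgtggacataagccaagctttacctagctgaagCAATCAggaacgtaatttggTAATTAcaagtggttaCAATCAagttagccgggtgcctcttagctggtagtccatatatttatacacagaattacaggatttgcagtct
Ldb2, height 26, chr5:45126092-45126292: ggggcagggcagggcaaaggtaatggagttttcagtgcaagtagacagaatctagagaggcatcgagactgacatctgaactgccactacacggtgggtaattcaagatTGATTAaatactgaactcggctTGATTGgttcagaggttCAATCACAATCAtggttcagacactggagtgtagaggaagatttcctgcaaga
Lhx8, height 26, chr3:153995196-153995396: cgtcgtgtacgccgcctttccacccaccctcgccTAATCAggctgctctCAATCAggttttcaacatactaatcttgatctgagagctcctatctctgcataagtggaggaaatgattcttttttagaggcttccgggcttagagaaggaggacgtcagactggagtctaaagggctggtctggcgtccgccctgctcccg
Lhx6, height 28, chr2:35964284-35964484: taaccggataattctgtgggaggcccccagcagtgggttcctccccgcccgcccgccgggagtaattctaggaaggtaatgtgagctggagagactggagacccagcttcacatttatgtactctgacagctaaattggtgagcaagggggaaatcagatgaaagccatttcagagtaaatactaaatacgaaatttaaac
Lhx6, height 27, chr2:35961052-35961252: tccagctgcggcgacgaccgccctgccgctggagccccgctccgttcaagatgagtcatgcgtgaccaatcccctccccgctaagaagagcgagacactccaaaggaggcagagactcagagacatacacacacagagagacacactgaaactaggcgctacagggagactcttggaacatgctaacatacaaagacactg
Lhx6, height 41, chr2:35867036-35867236: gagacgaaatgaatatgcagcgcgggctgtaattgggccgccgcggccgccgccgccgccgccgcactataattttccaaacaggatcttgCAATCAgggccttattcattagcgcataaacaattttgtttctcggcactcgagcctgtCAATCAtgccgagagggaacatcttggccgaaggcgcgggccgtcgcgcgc

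The deposited gene lists named a member for 20 of the 26 intervals, and the other 6 were joined by distance alone. By either route 8 of 10 members had an interval, where 48.7% of 22208 protein-coding genes in GENCODE M1 did. By gene list alone it was again 8 of 10, where 20.5% of protein-coding genes did. The authors placed 10 of the 20 listed intervals inside the gene, 8 upstream and 2 downstream. For all 20 the nearest protein-coding start was that of the member, and for all 6 joined by distance it was that of another gene. The same counts over all LHX6 intervals were not made, so these positions do not set the members apart. Summits within 1 kb of a listed start made up 6 of the 26, against 35.9% of all intervals. The input library had 6 intervals, and none of the 26 overlapped one. The share of all LHX6 intervals that did was not counted, and with so few input intervals this is no check on the 26.

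**Figure D1:**
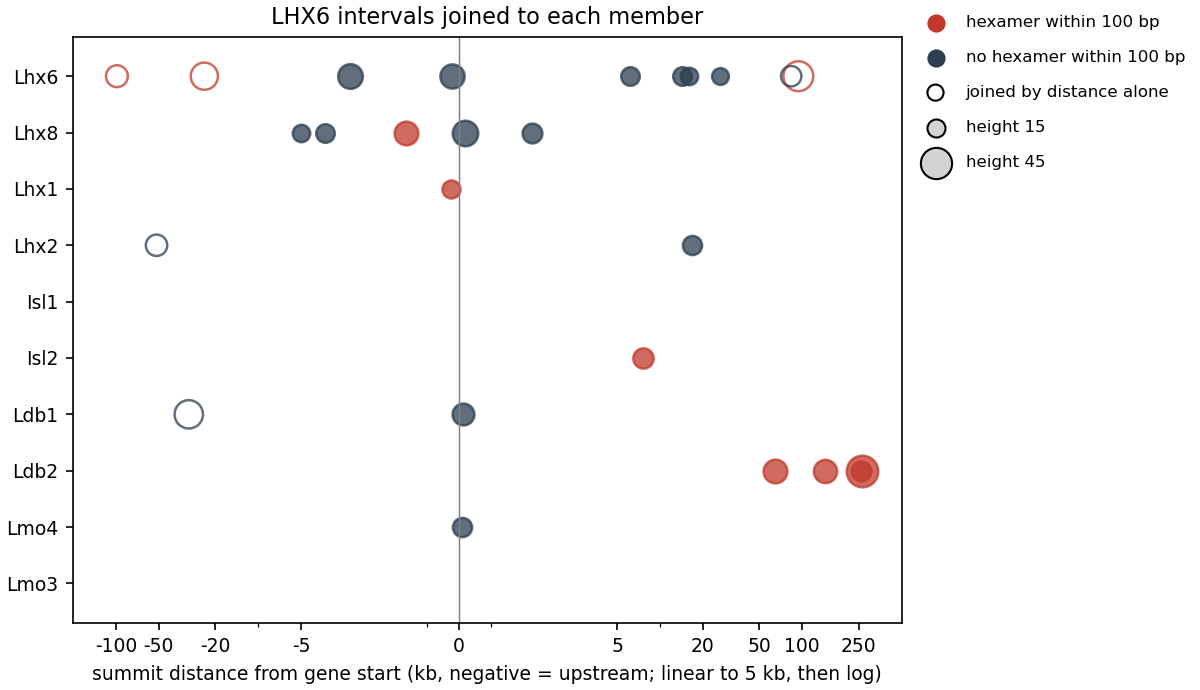
Position of the 26 LHX6 intervals joined to the 10 members, as the distance of the summit from the gene start in kb (linear to 5 kb, logarithmic beyond). Symbol area follows height, red marks a hexamer at the summit, and open circles were joined by distance alone; the Lhx8 intervals crowd at the start, those of Ldb2 lie far inside the gene, and the rows of Isl1 and Lmo3 are empty.

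The intervals of the members were of moderate height. Heights ran from 13 to 46 with a median of 20, against a median of 22 and an interquartile range of 18 to 28 over all LHX6 intervals. Of the 26, 12 (46.2%, 26.6 to 66.6) reached the overall median and 5 exceeded its upper quartile. Many heights tie, so the quartiles do not fix the shares of all intervals beyond them. Height 21 had rank 3478 of 6566, and the share above the upper quartile was not counted. They were long, with a median of 1166 bp against 857 bp. Lengths of 2000 bp or more were found in 3 of the 26, at Lhx6 and Lhx8, where 1.95% of all intervals were that long.

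**Figure D2:**
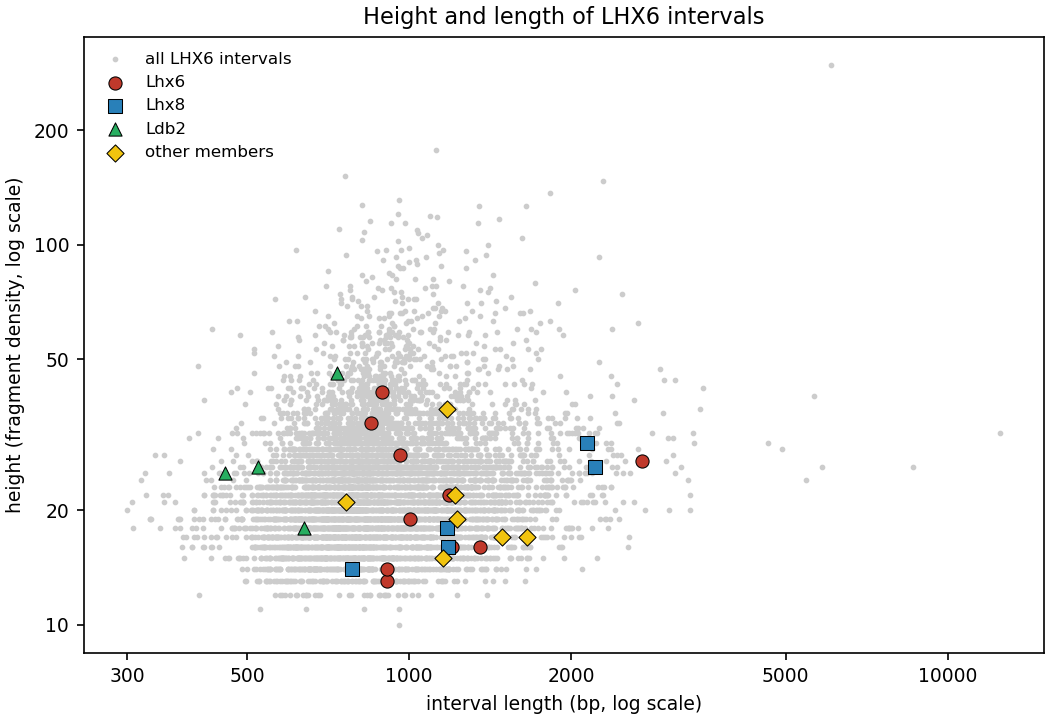
Height, the highest fragment density, against length in bp for all 6566 LHX6 intervals (grey) and the 26 joined to the members, both on log scales. Ldb2 intervals lie at the short side, from 455 to 736 bp, and the longest Lhx6 and Lhx8 intervals, from 2140 to 2707 bp, at the long side.

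Lhx6 (ENSMUSG00000026890, chromosome 2, 35937470 to 35960928, minus strand) had 6 intervals in the gene lists, a number reached by 0.153% of protein-coding genes, and 10 by either route, reached by 0.315%. The interval over its start (35958842 to 35961549) was 2707 bp long, longer than 99.6% of LHX6 intervals, with a height of 27. It held all 3 starts that RefSeq gives for Lhx6, placed on mm9 by exact match of the promoter sequence at 35960928, 35960053 and 35959580. Its summit lay 224 bp upstream of the first of these, so the highest density was at the outer end of the region. The interval 3.46 kb upstream (35963964 to 35964927) had a height of 28.

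The remaining Lhx6 intervals in the gene lists were lower. The interval 6.16 kb into the gene had a height of 16 and its summit lay in an intron. The interval 14.4 kb into the gene also had a height of 16, overlapped a CpG island and had its summit in coding sequence, and 623 bp beyond it lay an intronic interval of height 14. Past the 3′ end of Lhx6, 26.2 kb from its start, an interval of height 13 (rank 6421 of 6566) had its summit in an intron of Morn5. Among the listed intervals, heights within and beyond the gene, from 13 to 16, were thus all under those at or before the start, 27 and 28, in this 1 library. The intervals joined by distance, given next, do not follow this order.

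Of the 4 intervals joined to Lhx6 by distance, the highest (chromosome 2, 35866683 to 35867573, height 41, rank 508) lay 93.8 kb on the 3′ side of its start, outside protein-coding genes and on a CpG island, 31.7 kb from the start of Ttll11. A neighbour of height 19 lay 83.6 kb from the Lhx6 start and 27.6 kb from that of Ndufa8. In the other direction, an interval of height 34 lay 23.9 kb upstream, in an intron of Rbm18 and 7.11 kb from the start of Mrrf (35984401 to 35985251). The last, of height 22, lay 98.2 kb upstream and 26.8 kb from the start of Ptgs1, which encodes cyclooxygenase 1. Just outside the 100 kb limit were intervals 102 kb upstream (height 51) and 104 kb downstream (height 16).

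Lhx8 (ENSMUSG00000028201, chromosome 3, 153969260 to 153993615, minus strand) had 5 intervals, a number reached by 0.324% of protein-coding genes, and all of them had summits within 5 kb of its GENCODE start. The farthest was 4998 bp away, or 5089 bp by the authors' start. From the gene body outwards the heights of the 5 were 18, 30, 26, 16 and 14. The highest (153991789 to 153993929) covered the start, overlapped 2 CpG islands and had its summit in an untranslated part of an exon, and the interval 1.68 kb upstream (153994245 to 153996456) overlapped none. Upstream of that pair the heights were 16 at 4241 bp and 14 at 4998 bp.

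The Lhx8 intervals nearly adjoined each other. The gaps between them were 255, 316, 585 and 46 bp, and together they covered 86.2% of 8.69 kb, where the 6 listed Lhx6 intervals covered 26% of 31 kb. Of all neighbouring LHX6 intervals 3.13% were under 1 kb apart. Joining intervals with gaps under 1 kb gave 6361 runs, and that at Lhx8 was the only one with 5 intervals (0.0157% of runs). With gaps under 2 kb it was 1 of 6 such runs, and with gaps under 500 bp it divided and its longest piece held 3. These limits on gaps were chosen after the positions had been seen. Within 10 kb of its start Lhx8 had 5 summits, a number reached by 0.131% of protein-coding genes, and Lhx6 had 3, reached by 0.378%.

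**Figure D3:**
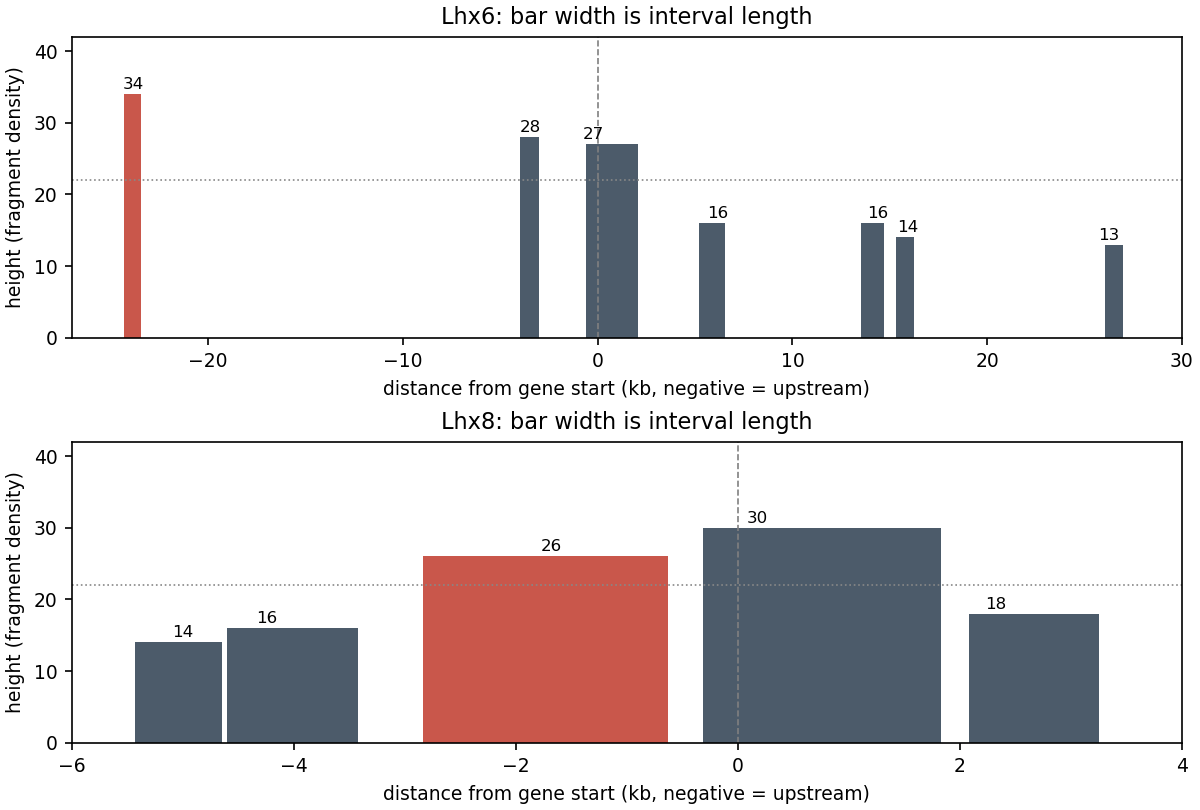
LHX6 intervals around the starts of Lhx6 and Lhx8, with distance from the gene start in kb on the horizontal axis, interval length as bar width and height, the highest fragment density, as bar height and number. The dotted line is the median height of all LHX6 intervals (22) and red marks a hexamer within 100 bp of the summit; the 5 Lhx8 bars almost touch, while those of Lhx6 are spread over 31 kb or more.

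One summit window of Lhx8, in the interval of height 16, held repeated sequence. A stretch of 14 bases (cacccccacgcact) was present 4 times in it, with a few other bases between the copies. The window of the Lhx6 interval of height 19 held a CA repeat, and that of the Lhx6 interval of height 41 held a short run of GCC units, visible in its printed sequence. Whether reads from repeated sequence contributed to these heights was not tested.

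The other LIM homeodomain genes had few intervals, and those were low. Lhx1, a regulator of kidney and head formation, had 1 interval over its start (chromosome 11, 84338414 to 84339570) with a height of 15 (rank 5901). Isl2, a motor neuron gene, had 1 of height 19 at its 3′ end (chromosome 9, 55393303 to 55394530), 7.6 kb from the start. Lhx2, which acts in eye, forebrain and limb, had 1 listed interval of height 17, 16.7 kb from its annotated start and in an intron (chromosome 2, 38210314 to 38211805). The authors' distance for that Lhx2 interval is 4.66 kb, since they used a different start. A second one, of height 21 and joined to Lhx2 by distance, lay 162 bp from the start of Dennd1a.

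Isl1, which acts in motor neurons, heart, hindlimb and jaw, was the member farthest from any interval. The nearest LHX6 summit on chromosome 13 was 2524 kb from its start and had a height of 19. For Lmo3 the nearest was 987 kb away, with a height of 23. The list holds intervals above an unstated threshold, so weaker enrichment at either gene cannot be told from none.

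Of the cofactor genes, Ldb1 and Ldb2 differed in where their intervals lay. Ldb1 (ENSMUSG00000025223, chromosome 19, 46107083 to 46119704, minus strand) had 1 interval over its annotated start, with a CpG island and a height of 22, equal to the median of all intervals; an intron of the adjacent gene Pprc1 overlaps its summit in the annotation. Its summit window held no hexamer, and 3 copies of TGATTG lay 544 to 708 bp away in an intron. The authors measured it as 5.46 kb upstream, because their Ldb1 start is a downstream one. A second, of height 37 and 30.7 kb away, lay 47 bp from the start of Nolc1 and came in by distance alone.

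Ldb2 (ENSMUSG00000039706, chromosome 5, 44863372 to 45190946, minus strand), a gene of 328 kb, had 4 intervals, a number reached by 0.608% of protein-coding genes. That share covers genes of all lengths, and genes of like length were not counted apart. All 4 intervals were intronic, and none overlapped a CpG island or lay near the start: the nearest was 64.8 kb inside. Their heights were 26 (45125948 to 45126472), 25 (45046214 to 45046669), 18 (44930245 to 44930882) and 46 (44928943 to 44929679, rank 362), in order from the start. The last was the highest of all 26, a height reached by 5.79% of LHX6 intervals, and lay 566 bp from its lower neighbour. These were also the shortest intervals of the set, at 455 to 736 bp, lengths that 28% of LHX6 intervals did not exceed.

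Lmo4, the LIM-only gene with an interval, had 1 over its start (chromosome 3, 143867300 to 143868959), 1659 bp long with a height of 17. Of the 16 member starts that RefSeq gives and that matched mm9 exactly, 7 lay in an LHX6 interval: all 3 of Lhx6, 1 of 3 each for Ldb1 and Lmo4, and those of Lhx8 and Lhx1. The share over the starts of all genes was not counted, so whether 7 of 16 is many cannot be told. RefSeq promoter sequences were at hand for 9 of the 10 members, Ldb2 being the exception.

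A hexamer lay at the summit in 10 of 26 intervals (38.5%, 20.2 to 59.4), against 50.1% of all LHX6 intervals, and in 7 of 52 windows of equal size 2 kb away (13.5%, against 20.2% over all intervals). In distal intervals, those over 1 kb from any start in the authors' lists, it was 9 of 20 (45%, 23.1 to 68.5) against 62.9%. TGATTG was present in 8 of the 26, TGATTA in 4 and TAATTA in 1, where the shares over all intervals were 32.3%, 23% and 8.74%. The bounds around 38.5% and 45% both include the share set beside them, so these counts do not set the members apart. Such bounds take the intervals as independent, which neighbours at 1 gene need not be, and no test was run. Of the 6 at gene starts, 1 held a hexamer, against 27.3%. A window held 2 or more hexamers in 5 of the 26, against 21.6%. CpG islands overlapped 13 of the 26 (50%, 29.9 to 70.1), against 41.6% of all intervals; it was 6 of 6 at gene starts against 92.5%, and 7 of 20 distal ones (35%, 15.4 to 59.2) against 13.1%. These 20 include the Ldb1 interval over the annotated start of that gene, since the authors' Ldb1 start lies elsewhere. Without it, CpG islands overlapped 6 of 19 (31.6%, 12.6 to 56.6) and a hexamer lay at the summit of 9 of 19 (47.4%, 24.4 to 71.1). The shares over all distal intervals were not recounted with GENCODE starts left out, so none is set beside these 2 counts.

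All 4 Ldb2 windows held a hexamer, as the printed sequences show (100%, 39.8 to 100). All 4 intervals were distal and without a CpG island, and the interval around 4 of 4 includes the 68.6% of such LHX6 intervals that held one, so this count does not set Ldb2 apart from them. The window of height 46 held TGATTA on opposite strands 36 bp before and 14 bp after the summit, and that of height 18 held 1 TGATTA 12 bp before it. That of height 25 held 2 TGATTG and 1 TAATTA between 6 bp before and 30 bp after the summit. That of height 26 held 3 TGATTG and 1 TGATTA, with adjoining copies of TGATTG on the minus strand. At least 4 in a window, as here, occurred in 1.75% of all LHX6 intervals. Over their whole length the Ldb2 intervals held 18 hexamers in 2.35 kb, or 7.65 per kb, against 1.79 per kb over all LHX6 intervals and 2.41 per kb over distal ones. The density over distal intervals without a CpG island was not counted. G and C made up a median of 43.8% of the Ldb2 windows, against 51.7% over all LHX6 intervals and 46.3% over distal ones. Whether base content or the short length of these intervals bears on the density was not tested.

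Near Lhx6 and Lhx8 the hexamers were few. Of their 11 listed intervals, 1 held one within 100 bp of the summit, that of Lhx8 with height 26, where TGATTG and TGATTA lay 48 and 64 bp below the summit position. Of the 9 that were distal it was again 1 (11.1%, 0.281 to 48.2), against 62.9% of all distal intervals, and of the 7 without a CpG island 1 (14.3%, 0.361 to 57.9), against the same 68.6%. Over all distal intervals the share was 43.3% at heights up to 17, 57.8% from 18 to 22, 66.9% from 23 to 29 and 80.1% from 30 upwards, and 7 of these 9 were under the overall median of 22. Over the whole intervals the density was 0.746 per kb at the 6 listed intervals of Lhx6 and 0.935 per kb at Lhx8, where it was 0.901 per kb over LHX6 intervals at gene starts and 2.41 per kb over distal ones, which 9 of these 11 were. Over all 10 Lhx6 intervals, with the 4 joined by distance, it was 1.59 per kb.

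Of the 4 intervals joined to Lhx6 by distance, 3 held a hexamer at the summit (75%, 19.4 to 99.4), near the 62.9% of all distal intervals. In the interval of height 41, a height that 8.44% of LHX6 intervals reached, TGATTG lay 6 bp below and 52 bp above the summit, and the second copy was part of TGATTGAC on the minus strand (35867184 to 35867191). This octamer, which contains TGATTG and begins the sequence that PBX proteins are known to bind together with MEIS or PREP proteins, lay at the summit of 1.49% of LHX6 intervals and anywhere in 3.56%. It also occurred in the interval over the Lhx6 start, in an intron 1286 bp from the summit (35959863 to 35959870). No other of the 26 intervals held it, and it was searched for after the sequences had been seen.

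E-boxes are the sites of basic helix-loop-helix proteins such as TWIST1. Of this form, CATCTG lay at 5 of the 26 summits and CAGCTG of 5 (19.2% for each, 6.55 to 39.4), against 21.8% and 16.3% of all LHX6 intervals. The Lhx6 interval 3.46 kb upstream held CATCTG 58 bp from the summit and none of the 3 hexamers, and the Ldb2 interval of height 46 held both E-boxes beside its TGATTA pair.

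The other LIM domain genes and partners of LDB gave 6 of 12 genes with an interval, and 3 of 12 by gene list alone, against 48.7% and 20.5% of protein-coding genes. Those named in gene lists all encode LDB partners. Ssbp3, whose protein stabilises LDB complexes, had an interval of height 20 at its start and 1 of height 27 in an intron, Rlim, whose protein ubiquitinates LDB cofactors and is listed as Rnf12, had 1 of height 17 at its start, and Ssbp4 had 1 of height 15 that lay 105 bp from the start of Isyna1. Distance alone joined 2 more to Ssbp3, of heights 23 and 14, and 5 more to Ssbp4. The highest of those 5, of height 41, lay 90.4 kb upstream of Ssbp4 and 1.02 kb from the start of Jund. The others had heights from 18 to 29. The share of genes with as many by either route was not counted. By distance alone, Lmo1 had 1 of height 18, 21.2 kb upstream in sequence with 4 TAATTA near the summit. Lhx3 had 1 of height 31 at 67.8 kb, and Lmx1a 1 of height 23 at 90.7 kb, at the start of Rxrg. No LHX6 interval was joined to Lhx4, Lhx5, Lhx9, Lmx1b, Lmo2 or Ssbp2.

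The genes most like Lhx6, among 15 others with 6 listed intervals, were 2810030E01Rik and Hist1h4b, whose highest intervals also had a height of 28, followed by Hist1h3f with 33. Among 37 others with 5, those nearest to Lhx8 in highest height were Exoc6b, Hist1h1b and Hist1h2an, each with 31, where the highest of Lhx8 was 30; 7 genes were that near. The likeness rests on the number of intervals and 1 height in 1 library.

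Gene lists of intervals named 8 of 8 facial mesenchyme markers (against 20.5% of protein-coding genes), 2 of 6 of facial epithelium, 0 of 4 of endothelium and 1 of 4 of neurons. An interval records enriched fragment density and not expression, so these counts do not check which cells the tissue held.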

How the data were processed

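Per the labels' protocols, the authors aligned reads to mm9 with BWA, extended them to 150 bp fragments and recorded fragment density. The submitters' processing notes also name MACS. Tool versions, settings and the interval threshold: not given in the sources used here. Each interval has 2 deposited signal values, its highest density (height) and its mean in bins of 32 bp, and whether that signal was scaled is not stated. Summits fell on a 16 bp grid in 97.5% of intervals, which limits the precision of positions.

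Gene starts were those of GENCODE M1 gene records on NCBIM37 (mm9), whose chromosome lengths held all intervals. Of 5266 listed gene symbols, 89% matched GENCODE directly or through older names from RefSeq (GRCm38.p6), whose coordinates were not used. RefSeq promoters of that build were placed on mm9 by exact match. Hexamers were counted on both strands with Python 3.11.15 and pandas 2.3.3, tested on simulated data with planted sites. Exact intervals came from scipy 1.17.1. Only the signal values and the annotation as deposited were used, and no test was run, since each group has 1 library.

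The members and lists were chosen with earlier results of these data known. Named genes were all members, listed partners with an interval, genes nearer to a member interval than the member, and up to 3 genes with as many listed intervals as Lhx6 or Lhx8 and the nearest highest height. The E-boxes, the octamer and the limits on gaps were chosen after the data were seen. Marker lists were facial mesenchyme, facial epithelium, endothelium and neurons. Alternatives changed the join, the distance, the threshold, the gene start, the window and the measure of strength.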

Additional observations from a re-analysis of the deposited data

How the results depend on the processing

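Of 49 alternative values, 29 stayed within 1.5 times the main count or kept the same value. Every way of joining intervals left 8 of 10 members with an interval, except that keeping intervals at or above the median height left 4 members and 12 intervals, 6 of them on CpG islands, and leaving out gene starts by the authors' distances left 6 members, among them Ldb1 with its interval over the annotated start; by the GENCODE starts as well, 5 members and 19 intervals were left, a rule added after the data were seen. For the threshold at the median height, the matching shares over all genes and all LHX6 intervals were not counted. Leaving out gene starts left 7 intervals on CpG islands and 3 of the other LIM domain genes and partners. The gene list alone also left 3 of those genes and partners. Within 200 kb, 17 of 35 intervals held a hexamer at the summit, against 50.1% of all LHX6 intervals. Anywhere in the interval, 18 of the 26 held one, with more sequence searched. The share of all LHX6 intervals that did was not counted, so whether 18 of 26 is many cannot be told. The median height of 20 became 18 with the gene list alone, 18.5 at 50 kb, 22 at 200 kb, 27.5 with the stricter threshold, 19 without gene starts and 19 with any transcript start. The median percentile of height, 37.5, became 48.5 with mean density. Runs of 5 or more intervals numbered 0, 6 and 12 with gaps under 500 bp, 2 kb and 5 kb. No paired analysis was possible because each group has 1 library, and for the same reason none could be left out.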

Other observations

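Intervals 100 to 200 kb from a member start were in part higher than those within 100 kb. Upstream of Lhx8, an interval of height 97 (chromosome 3, 154191714 to 154192622, rank 30 of 6566) lay 199 kb from its start and 67.5 kb from the start of Cryz, and one of height 54 (154130555 to 154131572, rank 234) lay 137 kb from Lhx8. Both held 2 of the searched hexamers at the summit, and neither overlapped a CpG island. Upstream of Lhx6, an interval of height 51 (chromosome 2, 36062423 to 36063379, rank 273) lay 102 kb from its start with 2 hexamers at its summit, 23.2 kb from the start of Ptgs1. The highest interval within 100 kb of Lhx8 had a height of 30 and that of Lhx6 41. Which gene any of these intervals acts on was not tested.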
